A study of Mus musculus with 8 samples.

Results

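Retinoic acid is made and read by a small set of genes, and 9 of them were followed here in the medial ganglionic eminence (MGE), the ventral part of the embryonic forebrain that gives rise to cortical interneurons. They are Aldh1a1, Aldh1a2 and Aldh1a3 for synthesis, Crabp1 and Crabp2 for binding, Cyp26b1 for breakdown, and Rara, Rarb and Rxrg for the receptors. A gene was measured by the probe whose accession mapped to its symbol, which gave 1 probe for each of the 9 genes, among 17178 gene symbols matched on the array. The 9 genes were chosen from the comparison of mutant with WT signal in these same arrays, in which some of them stood out. Their values in that comparison are therefore given as a description, without a test.

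RNA of microdissected MGE at embryonic day 13.5 was labelled with Cy3 and hybridised to 1-colour Agilent whole mouse genome arrays, 4 for WT and 4 for the Nkx2-1cKO. All samples were on the strain C57BL/6. The labels give the genotype Nkx2-1flox/+;Olig2tva-cre- for WT and Nkx2-1flox/+;Olig2tva-cre+ for the mutant, so that both groups carry a floxed allele of Nkx2-1 and the Cre is the difference. By these labels the mutants are heterozygous for the floxed allele, whereas the methods of the study name homozygous floxed mice, a Cre driven from Olig2 and a Cre reporter. Deletion is limited to cells with a history of Olig2 expression. The dissection in the methods takes the sulcus between the lateral ganglionic eminence (LGE) and the MGE as its dorsal border and removes the septum. Nothing says that the 4 samples of a group came from separate animals, and p-values then measure only the spread between these samples.

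Retinoic acid is a small lipid-soluble signal derived from vitamin A. Retinol dehydrogenases oxidise retinol to retinaldehyde, and the Aldh1a enzymes oxidise retinaldehyde to retinoic acid. CRABP proteins bind retinoic acid in the cytoplasm, CYP26 enzymes break it down, and in the nucleus RAR and RXR proteins bind DNA as pairs and turn on target genes when the ligand is present. In the embryonic forebrain, Aldh1a2 is known from the meninges and Aldh1a3 from the LGE, whose neurons form the striatum, and Rarb and Rxrg are known as receptors of the striatum.

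RAR and RXR pairs recognise repeats of a short half-site, and the promoter of Rarb is a classic example of a gene that its own receptor family switches on. RefSeq promoter windows of the build GRCm38.p6, from 250 bases before to 50 bases after each start, were available for 7 of the 9 genes, in 12 windows. The half-site was taken as AGGTCA or AGTTCA or GGGTCA or GGTTCA and searched on both strands, alone and as a direct repeat with 1, 2 or 5 bases between the half-sites. A single half-site also lies within each repeat. The Rarb window held a repeat spaced by 5, from 53 to 37 bases before the start (chr14:16575513-16575529, minus strand). Among all 32851 windows, 32 held such a repeat (0.0974%). No other member had a repeat of any of the 3 spacings in these windows, and repeats spaced by 1 and by 2 were found in 0.222% and 0.268% of all windows. Single half-sites were found in 6 of the 12 windows, which belong to Aldh1a1, Rara, Rarb and Rxrg, and in 43.7% of all windows. Outside the 9 genes, the window of Cyp26a1, which encodes another retinoic acid hydroxylase and is also a known target, held a repeat spaced by 5 on the opposite strand, from 32 to 16 bases before the start. Both are shown 5′ to 3′ in the direction of the gene, up to the base before the start, with the half-sites of the repeat in capitals, because the results below set the signal of these genes beside them. A match is a match of letters only.
Rarb, chr14:16575477-16575726, minus strand: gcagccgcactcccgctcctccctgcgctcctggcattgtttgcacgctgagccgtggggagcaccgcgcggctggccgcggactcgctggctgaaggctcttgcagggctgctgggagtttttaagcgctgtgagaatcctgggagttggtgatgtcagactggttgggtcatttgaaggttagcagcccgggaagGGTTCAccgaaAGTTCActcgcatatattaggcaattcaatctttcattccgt
Cyp26a1, chr19:37697748-37697807, plus strand: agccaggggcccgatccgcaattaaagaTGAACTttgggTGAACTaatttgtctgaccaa

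The 8 arrays lay on 2 slides, each with 2 arrays of each group. Of 41174 probes, between 71.1% and 79.5% were well above background on an array, and no spot was saturated. Signal is given throughout as the log2 of the intensity relative to the 75th percentile of its array, so that 0 is the level of a fairly bright probe, and a difference of 1 on this scale is a 2-fold difference. A probe was tested if at least 4 of the 8 arrays had it well above background, which left 31288 probes. All 9 genes met this, and 8 of the 9 were well above background on all 8 arrays. The exception was Aldh1a2, which was not well above background on Nkx2-1cKO array 1. Nkx2-1 averaged 1.87 ± 0.06 over the WT arrays and -4.46 ± 0.19 over the mutant arrays (SD, n = 4 each), which is 1.24% of the WT level. This separates the groups as labelled but goes against a heterozygous mutant, in which 1 intact allele would remain. The number of arrays limits the precision. In whole tissue, fewer cells of a type and less RNA per cell cannot be told apart.

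In the Nkx2-1cKO MGE, 4 of the 9 genes had every mutant array above every WT array, namely Aldh1a3, Rarb, Rxrg and Crabp1, with differences from 2.59 to 0.82 on the log2 scale. Crabp2 had every mutant array below every WT array, by 0.75 in the mean (log2 difference -0.75). The groups overlapped for the other 4, Aldh1a1, Aldh1a2, Cyp26b1 and Rara. Of all tested probes, 2.29% had every mutant array above and 4.11% every mutant array below, 6.4% in all. Since the genes were chosen on this contrast, nothing is read from the difference between these shares and 5 of 9. The mean was higher in the mutant for 7 genes and lower for 2, with a median difference of 0.44 over the 9 genes and -0.04 over all tested probes. For the same reason nothing is read from these values. The median of 0.44 is the difference of Rara, which was -0.12 without Nkx2-1cKO array 4.

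**Figure D1:**
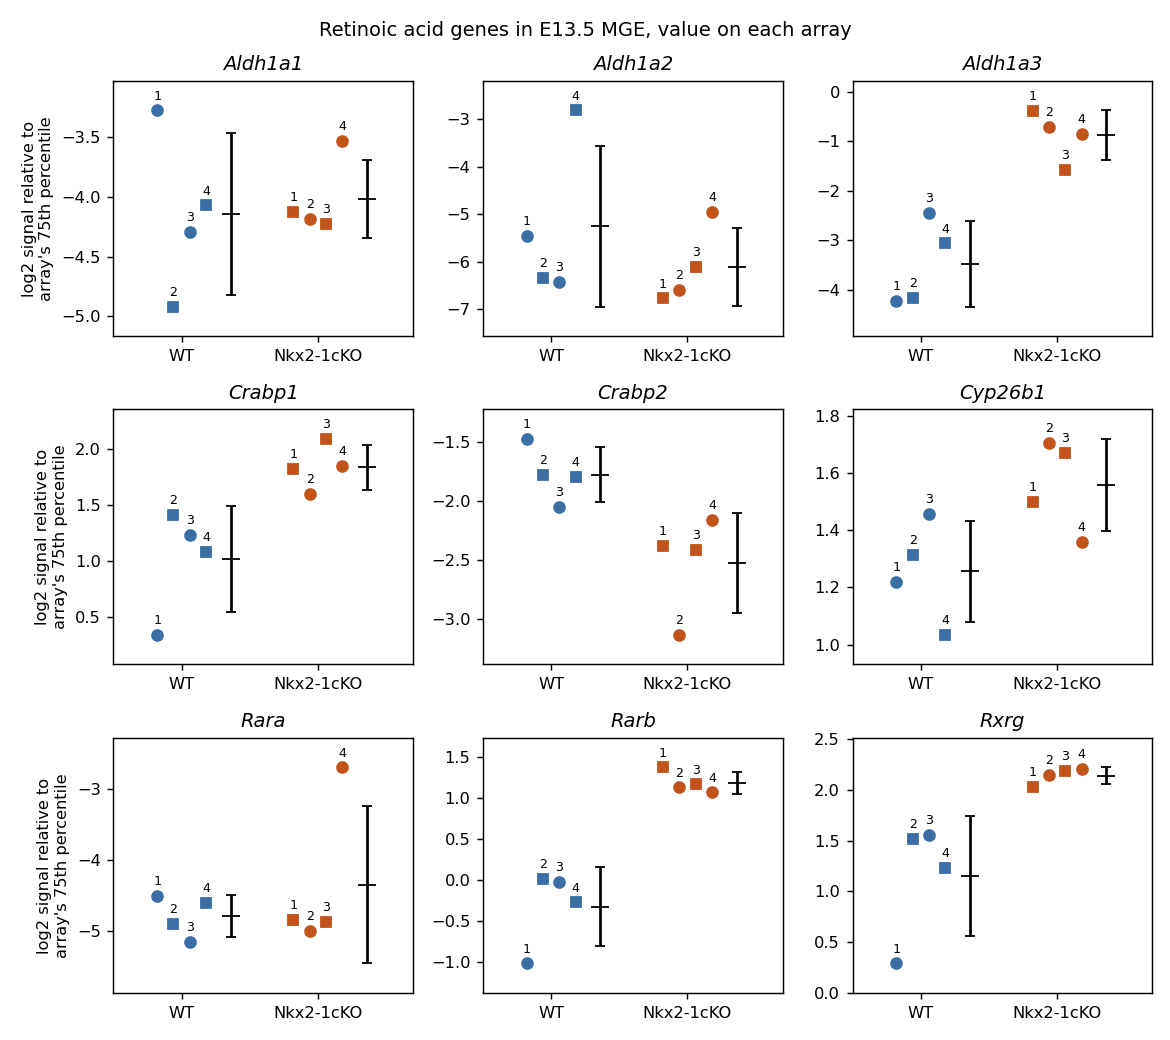
Log2 signal of each of the 9 genes relative to the 75th percentile of the array, with 1 point per array labelled by its replicate number (circles, slide 1; squares, slide 2) and the mean ± SD of the 4 arrays of each group in black. For Aldh1a3, Crabp1, Rarb and Rxrg all Nkx2-1cKO arrays lie above all WT arrays, for Crabp2 all lie below, and each panel has its own vertical scale.

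Among the enzymes of synthesis, Aldh1a3 had the largest difference of the 9 genes. It encodes a retinaldehyde dehydrogenase known for retinoic acid synthesis in the eye, the nose and the LGE. On WT arrays 1 to 4 its log2 signal was -4.22, -4.17, -2.46 and -3.07, and on Nkx2-1cKO arrays 1 to 4 it was -0.39, -0.71, -1.58 and -0.86. The WT arrays spread over more than the mutant arrays did, with arrays 1 and 2 low and array 3 high, and the lowest mutant array still lay 0.87 above the highest WT array. WT averaged -3.48 ± 0.86 and the mutant -0.89 ± 0.50 (SD, n = 4 each). This is a difference of 2.59 (standard error 0.40), or 6.02-fold. It was 2.55 within slide 1 and 2.63 within slide 2, and leaving out each array in turn moved it between 2.34 and 2.93.

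Aldh1a1, the dehydrogenase known from dopaminergic neurons and the dorsal retina, showed no such separation. Its log2 signal was -3.28, -4.92, -4.29 and -4.07 on the WT arrays and -4.13, -4.19, -4.23 and -3.54 on the Nkx2-1cKO arrays. WT array 1 was the highest of all 8 and WT array 2 the lowest, so the whole mutant range lay inside the WT range. The means were -4.14 ± 0.68 and -4.02 ± 0.32 (SD, n = 4 each), a difference of 0.12 (standard error 0.32). The sign turned without WT array 2 (-0.14) and without Nkx2-1cKO array 4 (-0.04). A near-identical copy, Aldh1a7, named here after its values were seen, was not well above background on any array, and whether the Aldh1a1 probe also binds its transcript was not tested.

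Aldh1a2, the enzyme known from the meninges, had the most negative difference of the 9 genes, and 1 array carried it. Its log2 signal was -5.45, -6.33, -6.43 and -2.81 on the WT arrays and -6.77, -6.59, -6.12 and -4.95 on the Nkx2-1cKO arrays. WT array 4 stood far above the other 7 and Nkx2-1cKO array 4 came next, while the other WT arrays lay within the mutant range. The means were -5.26 ± 1.69 and -6.11 ± 0.82 (SD, n = 4 each), a difference of -0.85 (standard error 0.77). Without WT array 4 the difference was -0.04, within slide 1 it was 0.17, and within slide 2, which holds WT array 4, it was -1.87. After another background correction (normexp) it was 0.36, so no direction can be given for Aldh1a2.

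Markers of meninges and mesenchyme were also high on WT array 4. Of a list of 11 such markers 10 were tested, and 8 of the 10 were highest on WT array 4. The summed signal of the list, in units of the 75th percentile of the array, was 7.84 on WT array 4, between 1.20 and 1.85 on the other WT arrays and between 1.18 and 1.80 on the mutant arrays. Col3a1, a fibrillar collagen, had a log2 signal of 1.26 on WT array 4 and between -1.61 and -1.18 on the other WT arrays. Lum, a proteoglycan of connective tissue, was at -0.83 on WT array 4 and between -9.04 and -4.24 on the other 7 arrays. None of the 10 markers passed the threshold between the groups (median log2 difference -0.57, lowest adjusted p = 0.527, limma). The part of meningeal RNA in the Aldh1a2 values was not tested.

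**Figure D2:**
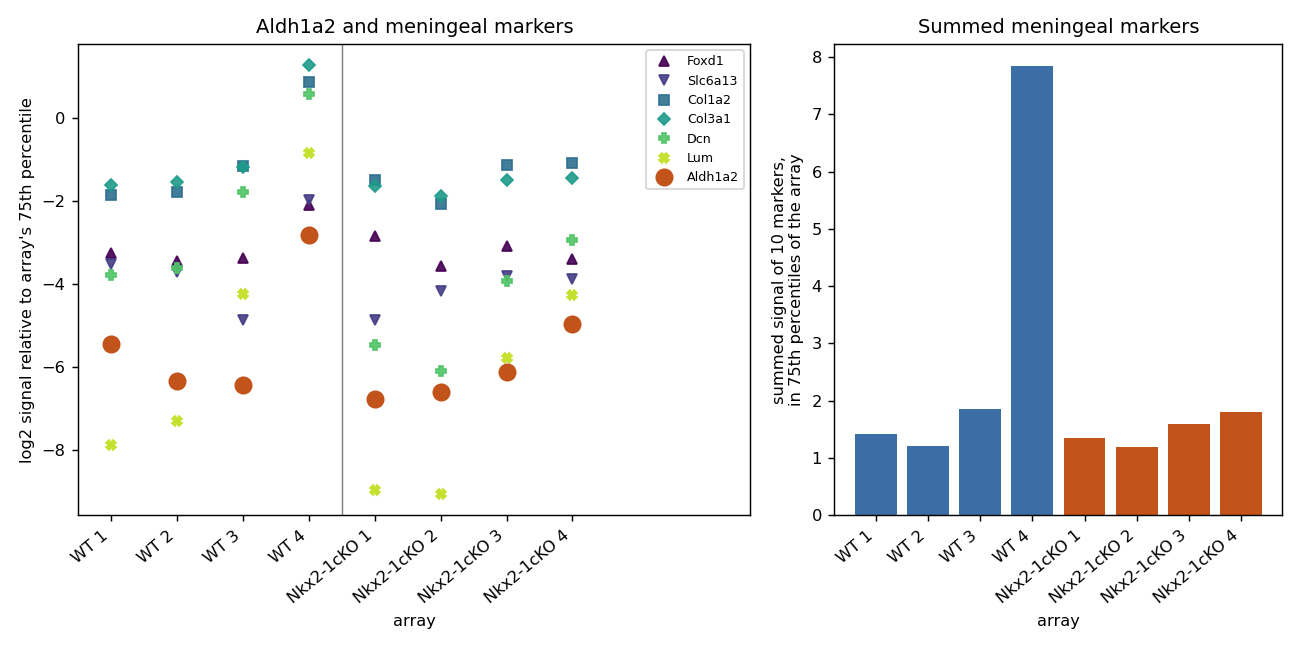
Left, log2 signal of Aldh1a2 and of 6 markers of meninges and mesenchyme on each of the 8 arrays; right, the summed signal of the 10 tested markers, in 75th percentiles of the array (WT blue, Nkx2-1cKO orange). Aldh1a2 (-2.81) and the 6 markers shown are highest on WT 4, where the sum is 7.84 against 1.18 to 1.85 elsewhere. Of the 10 tested markers, 8 are highest on WT 4, and the 6 shown were picked from these.

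Of the binding proteins, Crabp1 and Crabp2 differed in opposite directions. Crabp1 had a log2 signal of 0.34, 1.41, 1.23 and 1.08 on the WT arrays and 1.82, 1.60, 2.09 and 1.85 on the Nkx2-1cKO arrays. All mutant arrays were above all WT arrays, by 0.19 at the closest, and WT array 1 was well below the other 3. The means were 1.02 ± 0.47 and 1.84 ± 0.20 (SD, n = 4 each), a difference of 0.82 (standard error 0.21), or 1.77-fold. Without WT array 1 it was 0.60. The differences within slides 1 and 2 were 0.94 and 0.71.

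Crabp2, which carries retinoic acid to the receptors in the nucleus, had a log2 signal of -1.47, -1.77, -2.05 and -1.79 on the WT arrays and -2.38, -3.13, -2.41 and -2.16 on the Nkx2-1cKO arrays. The highest mutant array lay 0.11 below the lowest WT array, and Nkx2-1cKO array 2 lay below the other 7. The means were -1.77 ± 0.24 and -2.52 ± 0.42 (SD, n = 4 each), a difference of -0.75 (standard error 0.21), which leaves 59.6% of the WT level. Within slides 1 and 2 it was -0.89 and -0.61. After normexp background correction the difference was -0.36 and the groups overlapped, so the separation of Crabp2 was not kept under that correction.

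Cyp26b1, the hydroxylase that removes retinoic acid in many embryonic tissues, was the member with the smallest standard error. It had a log2 signal of 1.22, 1.32, 1.46 and 1.03 on the WT arrays and 1.50, 1.71, 1.67 and 1.36 on the Nkx2-1cKO arrays. Of the mutant arrays 3 were above every WT array, and Nkx2-1cKO array 4 lay inside the WT range. The means were 1.26 ± 0.18 and 1.56 ± 0.16 (SD, n = 4 each), a difference of 0.30 (standard error 0.12), or 1.23-fold. Within slides 1 and 2 it was 0.19 and 0.41.

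Of the receptors, Rarb and Rxrg were higher on every mutant array and Rara was not. Rarb, whose promoter holds the repeat shown above, had a log2 signal of -1.01, 0.02, -0.02 and -0.27 on the WT arrays and 1.37, 1.13, 1.16 and 1.07 on the Nkx2-1cKO arrays. The mutant arrays lay between 1.07 and 1.37 and at least 1.05 above every WT array, which is the widest gap between the groups among the 9 genes. The means were -0.32 ± 0.48 and 1.18 ± 0.13 (SD, n = 4 each), a difference of 1.51 (standard error 0.21), or 2.84-fold. It was 1.61 within slide 1 and 1.40 within slide 2, and with single arrays left out it ranged from 1.27 to 1.62.

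Rxrg, a retinoid X receptor that pairs with RAR and with other nuclear receptors, was at 0.29, 1.52, 1.55 and 1.23 on the WT arrays and at 2.03, 2.14, 2.19 and 2.21 on the Nkx2-1cKO arrays. The mutant arrays hardly differed from each other, and WT array 1 lay below all others. The means were 1.15 ± 0.59 and 2.14 ± 0.08 (SD, n = 4 each), a difference of 0.99 (standard error 0.24), or 1.99-fold. Without WT array 1 it was 0.71, the lowest value with a single array left out, and within slides 1 and 2 it was 1.26 and 0.73.

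Rara, a receptor found in most tissues, was at -4.50, -4.91, -5.16 and -4.61 on the WT arrays and at -4.85, -5.00, -4.87 and -2.69 on the Nkx2-1cKO arrays. The first 3 mutant arrays lay inside the WT range and Nkx2-1cKO array 4 stood far above all others. The means were -4.79 ± 0.30 and -4.36 ± 1.11 (SD, n = 4 each), a difference of 0.44 (standard error 0.47). Without Nkx2-1cKO array 4 it was -0.12, so that its direction rests on that array.

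**Figure D3:**
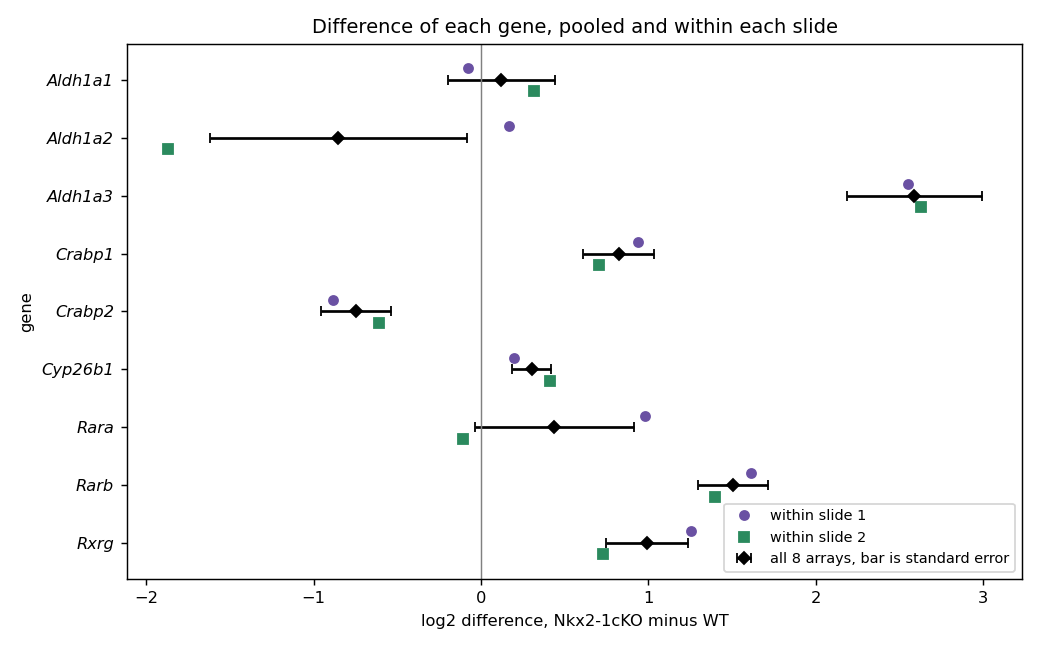
Log2 difference, Nkx2-1cKO minus WT, of each of the 9 genes over all 8 arrays (black, with the standard error) and within slide 1 (circles) and slide 2 (squares), 2 arrays against 2. The difference has 1 sign on both slides for 6 genes, and turns for Aldh1a1, Aldh1a2 and Rara.

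Slides were compared as a check that the choice of the genes did not use. With group in the model, the difference of slide 2 from slide 1 ranged from -0.51 for Aldh1a1 to 0.35 for Aldh1a2, with adjusted p between 0.252 and 0.802 (limma, Benjamini-Hochberg over all tested probes). Thus 0 of the 9 genes passed the threshold, with 0 also at an unadjusted p under 0.05, where 14.2% of all tested probes passed after adjustment. After normexp background correction Crabp1 passed.

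The arrays did not contribute evenly. WT array 1 was the lowest WT array for Aldh1a3, Crabp1, Rarb and Rxrg, and the highest for Aldh1a1, Crabp2 and Rara. With the tested probes in 5 equal groups by brightness, the dimmest group was raised by 1.18 in the median on that array against the other 7, while the brightest differed by -0.04. Crabp1 and Rxrg belong to the brightest group and Rarb to the next, where the array differed by -0.01. Nkx2-1cKO array 4 was the highest mutant array for 5 genes, Aldh1a1, Aldh1a2, Crabp2, Rara and Rxrg, and its dimmest group was raised by 0.22. On that array the next dimmest group differed by 0.03, the middle group by -0.04 and the brightest by -0.01. Leaving out both arrays together kept the sign of the difference for each of the 5 genes whose groups did not overlap, with 0.59 for Crabp1, 0.69 for Rxrg, 1.31 for Rarb, 2.33 for Aldh1a3 and -0.77 for Crabp2.

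Markers of the LGE moved with the genes that were higher in the mutant. In a list of 13 LGE and striatal markers every gene had a higher mean in the Nkx2-1cKO and 7 passed the threshold, where 0.422% of all tested probes were higher at an adjusted p under 0.05. Their summed signal was between 46.7 and 64.8 on the WT arrays and between 88.0 and 102 on the mutant arrays. It was lowest on WT array 1, where the bright Meis2 probe in the sum was at 4.10, against 4.86 to 5.05 on the other WT arrays. The other Meis2 probe, not in the sum, was at 4.66 on WT array 1 and was lowest on WT array 4, at 4.43. In a list of 8 MGE markers 7 were lower past the threshold, where 0.614% of all tested probes were lower, and 1.04% differed in either direction. Their sum was between 52.8 and 54.9 on the WT arrays and between 9.14 and 10.8 on the mutant arrays. Nkx2-1, the deleted gene, is among the 7 and in this sum. Both marker lists were written with earlier results of these data known, so their counts are a description only. Whether the higher Aldh1a3, Rarb, Rxrg and Crabp1 come with these LGE markers in the same cells, or with LGE tissue in the dissection, was not tested.

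None of the other marker lists had a gene past the threshold. The summed markers of the ganglionic eminences as a whole, among them Dlx and Gad genes, lay between 55.1 and 59.8 in WT and between 52.1 and 54.6 in the mutant (7 genes), and those of the pallium between 31.0 and 36.8 and between 36.2 and 42.5 (9 genes). For the choroid plexus, another source of retinoic acid, 5 of 6 markers were tested and summed to between 0.303 and 0.679 in WT and between 0.218 and 0.481 in the mutant, and its defining gene Ttr was too dim to be tested. The sums of 6 endothelial markers were 7.08 to 10.06 and 7.72 to 9.59, of 4 microglial markers 1.72 to 1.85 and 1.79 to 1.997, and of 5 erythroid markers 86.1 to 128 and 91.7 to 138, in WT and the mutant.

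Beyond the 9 genes, 2 genes passed the threshold in a wider list of retinoid pathway genes and other partners of RXR. The list was written with earlier results of these data known, so its counts are a description only. Of 51 other genes of retinol handling, transport, breakdown, receptors, coregulators and other nuclear receptors that pair with RXR, 39 were tested, 1 was higher and 1 was lower in the Nkx2-1cKO at an adjusted p under 0.05 (limma), where 0.422% of all tested probes were higher and 0.614% lower. Their median log2 difference was -0.03, beside -0.04 for all tested probes. Among the other 37 the lowest adjusted p was 0.18. No probe matched Fabp5 or Cyp26c1.

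Stra6l, which encodes a cell surface receptor for the retinol carrier of blood, was 2.60-fold higher, a log2 rise of 1.38 (standard error 0.19, adjusted p = 0.00654, limma). Its log2 signal was -1.47, -0.47, -0.90 and -0.82 on the WT arrays and 0.46, 0.44, 0.63 and 0.31 on the Nkx2-1cKO arrays, with no overlap. The other Stra6l probe rose by 1.20 (adjusted p = 0.0063, limma). With single arrays left out, the brighter Stra6l probe passed in 8 of 8 cases.

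The lower gene was Nr4a2, an orphan nuclear receptor that can pair with RXR and is best known from dopaminergic neurons. It fell by 1.06 (standard error 0.13, adjusted p = 0.00475, limma), from 1.11, 1.12, 0.79 and 1.16 on the WT arrays to -0.34, 0.05, 0.22 and 0.01 on the Nkx2-1cKO arrays. The groups did not overlap, and Nr4a2 passed in 8 of 8 cases when each array was left out.

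The 3 receptors outside the 9 genes did not pass. Rarg differed by 0.01 (standard error 0.16, adjusted p = 0.988, limma) and on a dimmer probe by -0.41 (adjusted p = 0.704, limma). Rxra differed by -0.17 (standard error 0.28, adjusted p = 0.843, limma) and Rxrb by 0.15 (standard error 0.10, adjusted p = 0.663, limma). Rxra was the receptor that differed between the slides, on its brighter probe by -0.79 for slide 2 against slide 1 (adjusted p = 0.00327, limma). On its dimmer probe the slide difference was 0.27 (adjusted p = 0.433, limma). Rdh10, the retinol dehydrogenase that supplies retinaldehyde to the embryo, differed by 0.06 (standard error 0.13, adjusted p = 0.895, limma), and none of the 13 tested genes of retinol storage and oxidation passed.

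Cyp26a1, with a repeat spaced by 5 in its promoter as in Rarb, was lower in the mean and dim. Its log2 signal was -5.58, -6.58, -5.90 and -6.24 on the WT arrays and -7.60, -7.38, -7.08 and -6.78 on the Nkx2-1cKO arrays. It was well above background on all 4 WT arrays and on 1 of the 4 mutant arrays, all of which lay below all WT arrays. The difference of -1.13 (standard error 0.37) did not pass the threshold (adjusted p = 0.362, limma). Cyp26a1 belongs to the dimmest of the groups by brightness. Against the other arrays, that group differed in the median by 1.18, -0.06, 0.05 and 0.09 on WT arrays 1 to 4. On Nkx2-1cKO arrays 1 to 4 it differed by -0.31, -0.12, -0.41 and 0.22. The part of this in the Cyp26a1 difference was not tested.

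**Figure D4:**
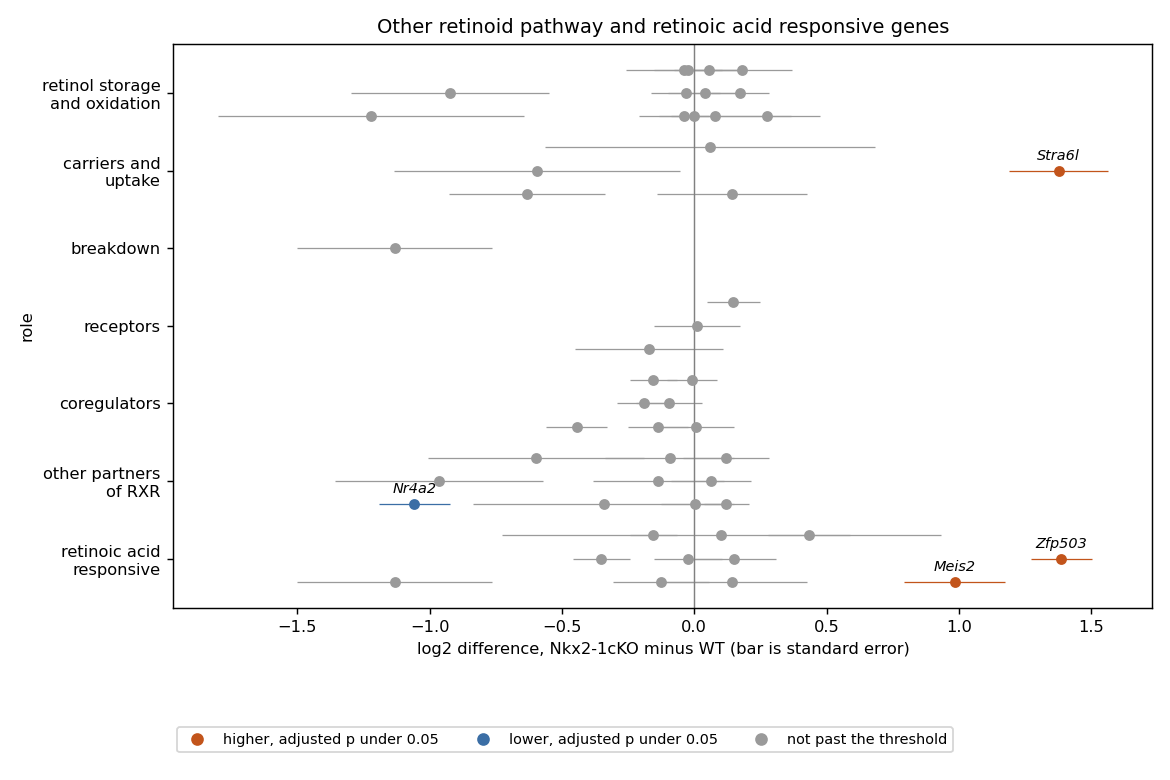
Log2 difference, Nkx2-1cKO minus WT, with its standard error for the tested genes of the retinoid pathway outside the 9 genes and for retinoic acid responsive genes, by role, 1 point per gene in each role at its brightest probe. Genes in both lists, such as Cyp26a1 and Dhrs3, are drawn in each. Past the threshold were Stra6l (1.38), Nr4a2 (-1.06), Zfp503 (1.39) and Meis2 (0.98).

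A second list held 15 genes known to respond to retinoic acid, of which 11 were tested and 2 were higher past the threshold (limma), where 0.422% of all tested probes were higher. Among the other 9 the lowest adjusted p was 0.309. The median log2 difference was 0.10, with a higher mean in the mutant for 6 of the 11 and a lower mean for 5. The higher genes were Zfp503, a zinc finger gene of the developing striatum, and Meis2, a homeobox gene of the LGE. The results of both in these data were known when the list was written, so nothing is read from their number beside that share. Zfp503 was at 0.98, 1.14, 1.08 and 0.70 on the WT arrays and at 2.49, 2.18, 2.45 and 2.32 on the mutant arrays, without overlap, a rise of 1.39 (adjusted p = 0.000328, limma). Meis2 was at 4.10, 5.01, 5.05 and 4.86 on the WT arrays and at 5.78, 5.56, 5.84 and 5.78 on the mutant arrays, a rise of 0.98 (adjusted p = 0.0462, limma), and as for Rarb and Rxrg its WT array 1 was the lowest. On the other Meis2 probe the rise was 0.67 (adjusted p = 0.00362, limma). There WT array 1 was at 4.66, and the lowest was WT array 4, at 4.43. When each array was left out, Zfp503 passed in 8 of 8 cases and the brighter Meis2 probe in 1 of 8, without WT array 1. Zfp503 and Meis2 are also among the LGE markers counted above. Some other genes of this list, among them Cyp26a1 and Dhrs3, are also counted in the pathway list. Known targets outside the forebrain, Hoxb1 and Cdx1, were too dim to be tested, and Tgm2 and Dhrs3 differed by -0.35 (adjusted p = 0.309, limma) and -0.02 (adjusted p = 0.962, limma). The other Tgm2 probes differed by -0.75 (adjusted p = 0.43, limma) and -0.68 (adjusted p = 0.47, limma). On each Tgm2 probe every mutant array lay below every WT array, as for 4.11% of all tested probes. Drd2 went the other way, by 0.43 (adjusted p = 0.439, limma). Its mutant arrays all lay above its WT arrays, as for 2.29% of all tested probes. The other Dhrs3 probe differed by -0.23 (adjusted p = 0.641, limma), with overlap.

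By the correlation of log2 signal over the 8 arrays, the named genes most like Aldh1a3 were Ttc4 (Pearson's r = 0.972), Mgat4c (0.970) and Cdh20 (0.966). Their differences between the groups were 0.16, 0.77 and 0.65 on the log2 scale, smaller than that of Aldh1a3. Those most like Aldh1a2 were Snai1 (0.973), Mapk6 (0.970) and Slc22a6 (0.942). Each was highest on WT array 4, where Slc22a6 was at -1.82, against -6.18 to -5.10 on the other 7 arrays. The points share the arrays and their 2 groups, and with 8 points among many probes high values of r are a description only.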

How the data were processed

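Total RNA from E13.5 MGE of 4 WT and 4 Nkx2-1cKO samples was hybridised to 1-colour Agilent arrays. The authors deposited the intensity of each spot as given by Agilent Feature Extraction (version 10.1 in the submitters' processing notes, 10.7.3.1 in the file headers), with the background subtracted within each array and without scaling between arrays. Without control and outlier spots, each intensity was divided by the 75th percentile of its array and log2-transformed, and repeated spots were averaged into 41174 probes. The accessions of 24844 of them led to 17178 symbols in a RefSeq table of GRCm38.p6, whose gene coordinates were not used. Probes that at least 4 arrays had well above background (31288, with 50 missing values) were compared in limma 3.58.1 (R 4.3.3), by lmFit and eBayes with trended variance. The threshold was a Benjamini-Hochberg adjusted p of 0.05 over all of them. Groups were taken from the genotype labels. The procedure was tested on simulated data. A gene with several tested probes is represented by the brightest.

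The members and lists were chosen with earlier results of these data known, and some list genes are not reported here and do not enter the counts. The text names all 9 members, genes of the pathway and responsive lists past the threshold, Rarg, Rxra, Rxrb, Rdh10, Cyp26a1 and Cyp26c1 whatever their result, the 3 genes most correlated with the member of largest rise and of largest fall among probes well above background on all 8 arrays, Nkx2-1, and markers where a result turns on them. Tgm2, Dhrs3, Drd2, Hoxb1, Cdx1, Fabp5 and Aldh1a7 were named after their values were seen. Lists covered the retinoid pathway, retinoic acid responsive genes, and markers of ganglionic eminence, MGE, LGE, meninges, choroid plexus, pallium, endothelium, microglia and erythroid cells.

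As alternatives, arrays were quantile normalized, centred on their medians or corrected by normexp with offset 50 on the median signals, the filter on dim probes was dropped or tightened, slide or replicate number entered as a block, the variance trend was dropped, probes of a gene were averaged, and single arrays were left out. Leaving out WT array 1 and Nkx2-1cKO array 4 together was chosen after seeing the data. Deviations from the group means of arrays with the same number correlated at -0.481 to -0.194. Arrays with the same number always lay on different slides, and slide was not removed first. These correlations therefore cannot tell whether the numbers pair the samples.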

Additional observations from a re-analysis of the deposited data

Results flagged for a closer look

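An array far from the other 3 of its group was found in 6 of 58 groups of 4 arrays examined, and chance gives about 1 in 20 groups, or 2.9 of 58. Nkx2-1cKO array 4 stood apart for 2 of the synthesis and receptor genes: Aldh1a1 was at -3.54 on the log2 scale, with the other mutant arrays between -4.23 and -4.13, and Rara was at -2.69, with the others between -5.00 and -4.85. WT array 4 stood apart for the mesenchymal markers Col3a1, at 1.26 with the other WT arrays between -1.61 and -1.18, and Foxd1, at -2.10 with the others between -3.44 and -3.24. Nr4a2 was at 0.79 on WT array 3 and between 1.11 and 1.16 on the other WT arrays, and Rarg was at -4.43 on Nkx2-1cKO array 1 and between -4.17 and -4.12 on the others.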

How the results depend on the processing

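The 4 genes with every mutant array above every WT array, Aldh1a3, Crabp1, Rarb and Rxrg, stayed so under quantile normalization, centring on the median and normexp background correction. Their differences kept their sign under every alternative run, between 2.20 and 2.93 for Aldh1a3, 0.59 and 0.95 for Crabp1, 1.27 and 1.63 for Rarb, and 0.69 and 1.13 for Rxrg. Centring and normexp shifted the median of all probes by 0.12 and 0.24 on the log2 scale. The difference of Crabp2 moved to -0.36 with normexp, or -0.56 relative to the median of all probes, and that of Aldh1a2 to 0.36, or 0.16 relative to it. Without WT array 1 and Nkx2-1cKO array 4 together, Rara was at -0.02.

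Higher probes numbered 132 and lower probes 192. They were 63 and 92 with normexp, 209 and 265 with slide as a block, 58 and 122 without WT array 1 and Nkx2-1cKO array 4, and the lower ones 115 when centred. Leaving out each array gave 64 to 120 higher and 131 to 174 lower. Among the other pathway genes, the higher one (Stra6l) passed in all of these, and the lower ones numbered 0 without those 2 arrays together. The responsive genes that were higher numbered 1 (Zfp503) under quantile normalization, when centred, without a filter and without a variance trend, and 1 to 2 without each array. Slide passed for 1 member, Crabp1, with normexp. The causes were not tested.

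With a replicate block, 8 probes were higher and 65 lower, 0 other pathway genes were higher and 0 lower, and 1 responsive gene, Zfp503, was higher. Whether the numbers pair the samples is not known. Of the pathway genes outside the 9, 10 were too dim to be tested.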
